A study of Mus musculus with 6 samples.

Results

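Erythropoietin (EPO) signalling was examined through 10 genes in sorted mouse bone marrow cells: the receptor Epor, the kinase Jak2, the transcription factors Stat5a and Stat5b, the targets and feedback inhibitors Cish, Socs2, Socs3 and Pim1, and the regulators Lyn and Sh2b3. They were chosen by symbol as components, targets or inhibitors of the pathway, and all 10 were found among the 13007 rows of the deposited gene count table. The RNA-seq compared 3 libraries of acute erythroid leukemia (AEL) cells with 3 libraries of normal erythroid precursors (NC), all of strain C57BL/6. The AEL cells carry the genotype label Trp53-/-ERG-expressing: they are labelled as lacking the tumor suppressor p53, overexpress the ETS factor ERG together with GFP, and were sorted as GFP-positive cells. The NC cells are labelled wild type (WT) and were sorted with antibodies to CD71 and Ter119, surface markers of red cell precursors. All 6 samples, the NC cells too, carry a source label with mutations of ASXL1 and SETBP1; this goes against WT, and the labels do not settle it. The sources used here do not give the vector that drives ERG, the age of the animals or whether each replicate came from its own animal, and p-values here reflect only how far these libraries vary. Because each group was sorted on its own markers, effects of sorting and of leukemia cannot be told apart.

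EPO is the hormone that keeps erythroid progenitors alive and dividing. Its receptor has no enzyme activity and works through the bound kinase JAK2, which phosphorylates the receptor and the transcription factors STAT5A and STAT5B. STAT5 enters the nucleus and switches on survival genes together with CISH and SOCS proteins, which act back on the receptor and on JAK2. LNK, encoded by Sh2b3, is an adaptor that restrains JAK2, and LYN is a SRC family kinase that also associates with the receptor.

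Library totals ran from 8171676 to 9945330 counts. Trp53 stood at 976 to 1172 CPM (counts-per-million) in the libraries labelled Trp53-/- and at 162 to 177 CPM in NC. It was thus higher, not lower, in the libraries labelled as knockout; a count per gene does not tell deleted exons from the rest, so it neither shows nor checks the deletion. Erg, the overexpressed gene, stood at 557 to 790 CPM in AEL and 4.39 to 8.53 CPM in NC. All 10 erythroid markers were counted in every AEL library, among them Klf1 at 269 to 404 CPM; the list summed to 4425 to 10125 CPM in AEL and 39027 to 51735 CPM in NC, with 8 of 10 lower in AEL. Markers of other marrow cells were present in NC and low in AEL: 12 of 12 neutrophil genes were lower (summed 17.6 to 1051 CPM in AEL, 7603 to 8878 CPM in NC), as were 11 of 12 monocyte and macrophage genes (15.5 to 269 against 4100.2 to 4913 CPM) and 10 of 10 B cell genes (1.80 to 2.75 against 235 to 286 CPM). Of the 5 T and NK cell genes counted, 4 were lower (0.225 to 1.46 against 53.7 to 60.8 CPM). The neutrophil genes Cebpe and Csf3r and the macrophage genes C1qb and C1qc had no counts in AEL replicate 1. Megakaryocyte genes (2 higher and 2 lower of 6) and mast cell, basophil and eosinophil genes (1 higher and 4 lower of 8) went both ways, and Gp1bb, Ppbp, Epx and Ccr3 had no counts in any AEL library. The AEL libraries varied far more among themselves than the NC libraries: the biological coefficient of variation was 44.1% in AEL and 9.01% in NC. In bulk RNA, fewer cells of a type and less RNA per cell cannot be told apart.

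Stat5a rose 3.87-fold and Stat5b 1.64-fold in AEL. Socs3 was 8.31-fold lower and Socs2 was lower at few counts. Both reached the filter of 1 CPM in 3 libraries only with NC, where they are high, and are given as a description. The receptor, its kinase and the targets Cish and Pim1 did not pass, and they spread widely between the AEL libraries. In all, 4 of 10 genes passed edgeR's quasi-likelihood test (Benjamini-Hochberg adjusted p under 0.05), a smaller share than the 52.8% of all 12427 genes tested. Of the 10, 2 were higher (23.9% of all genes) and 2 lower (29.0%), the latter being Socs2 and Socs3. Groups did not overlap for 5 of 10, against 66.0% of all genes: 2 lay wholly above NC (29.9% of all genes) and 3 wholly below (36.1%).

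**Figure D1:**
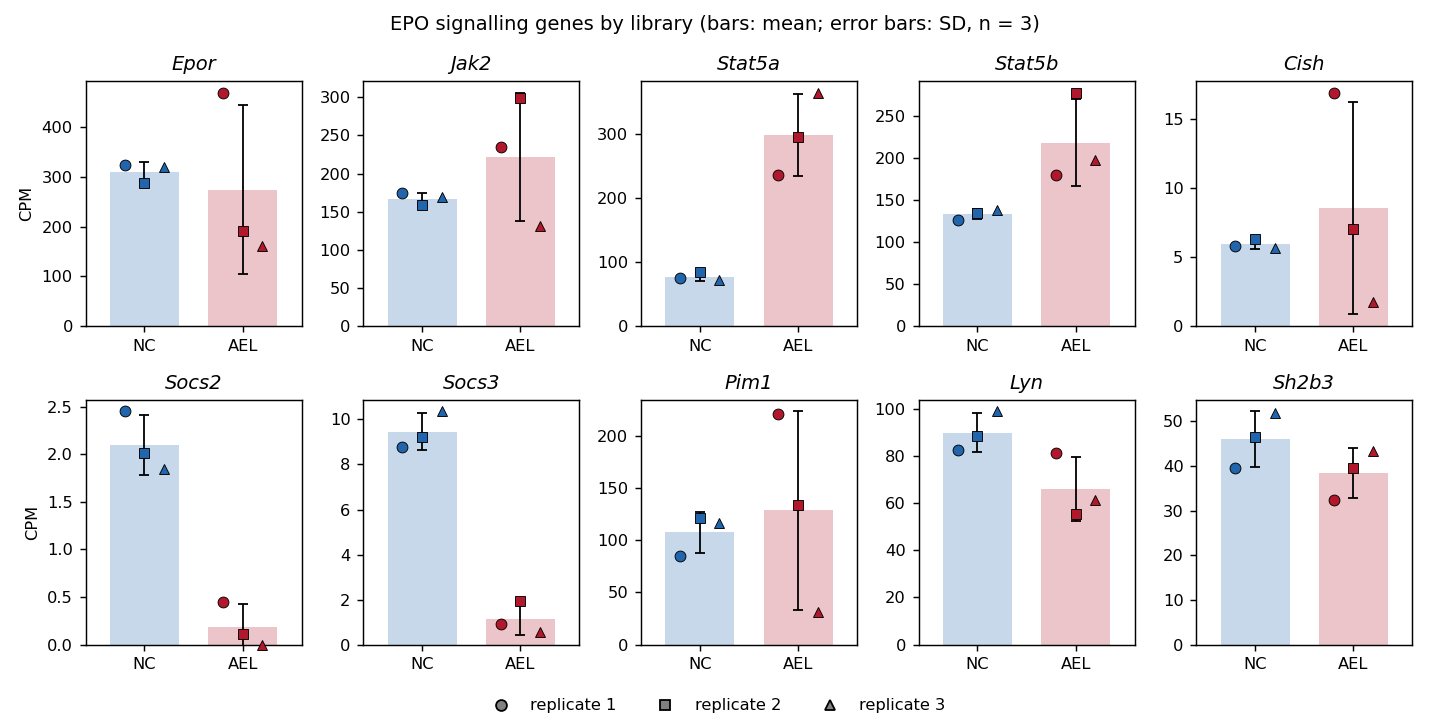
CPM (y axis, linear from 0) of each of the 10 genes in the 3 NC and 3 AEL libraries; bars are group means, error bars SD (n = 3) and symbols mark the replicate. Stat5a and Stat5b lie higher in every AEL library, Socs2, Socs3 and Lyn lie lower, and Epor, Cish and Pim1 span the NC values.

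**Figure D2:**
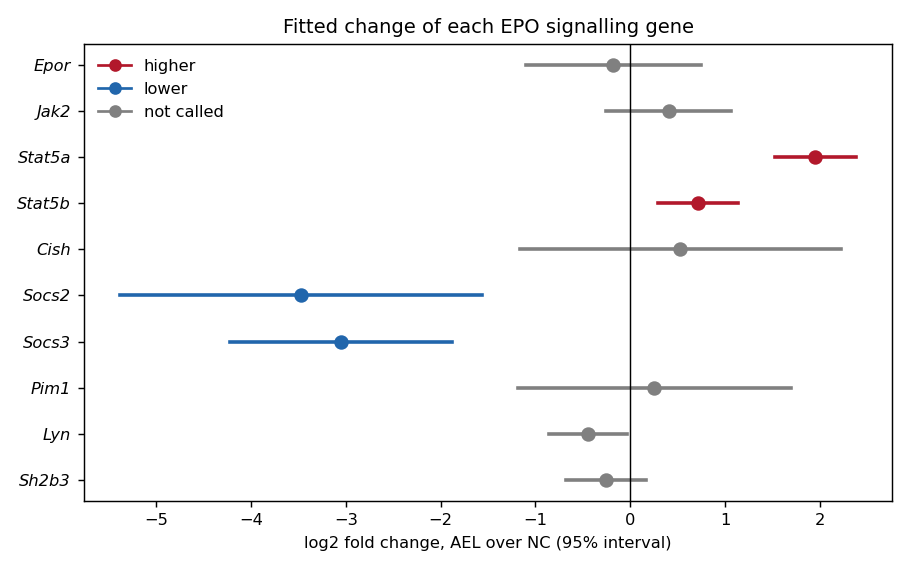
Fitted log2 fold change of AEL over NC (x axis) with its 95% interval for each gene; red and blue mark genes that passed the test as higher or lower. The intervals of Epor, Jak2, Cish, Pim1 and Sh2b3 include 0, and that of Lyn ends at -0.03.

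Epor encodes the receptor (chromosome 9, 21958897 to 21963506, minus strand, GRCm38; ENSMUSG00000006235.6). It was counted at 469, 192 and 162 CPM in AEL replicates 1, 2 and 3, and at 324, 288 and 320 CPM in the NC replicates. AEL replicate 1 was thus above every NC library and the other AEL libraries below every one. Its mean was 274 ± 169 CPM in AEL, below the 311 ± 19.6 CPM of NC (SD, n = 3). The fitted log2 fold change was -0.18 (SE 0.39, adjusted p = 0.722), with a 95% interval of -1.10 to 0.75. Without AEL replicate 1 it became -0.74 and passed (adjusted p = 0.00494), and it became 0.04 and 0.10 without AEL replicate 2 or 3. Per kilobase of coding transcript Epor had the highest mean level of the 10 genes in both groups, 156 CPM per kb in AEL and 176 CPM per kb in NC.

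The Epor promoter is shown because GATA1, the central erythroid factor, is known to act there through a GATA site beside a GC-rich stretch. The sequence is from RefSeq (GRCm38.p6, chr9:21963547-21963706, minus strand) and runs from base -130 to base 30, counting the start site as base 1. This start site is that of RefSeq. The stretch lies upstream of the gene span given above, which is from the GENCODE annotation. Capitals mark the match to GATAA, searched on both strands, which reads TTATC here.
Epor: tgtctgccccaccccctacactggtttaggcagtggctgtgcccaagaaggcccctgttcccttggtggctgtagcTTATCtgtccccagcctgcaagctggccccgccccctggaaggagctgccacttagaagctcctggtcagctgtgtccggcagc
The match covers bases -54 to -50 from the start site. GATAA occurs in 25.4% of the 32851 RefSeq promoter windows of 300 bases, so a match alone is common. Gata1 itself was at 377, 276 and 276 CPM in AEL and 389 to 443 CPM in NC (adjusted p = 0.0702).

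Jak2 (chromosome 19, 29251828 to 29313080, plus strand; ENSMUSG00000024789.13) was at 235, 299 and 132 CPM in AEL replicates 1 to 3 and at 174, 159 and 169 CPM in NC. AEL replicates 1 and 2 were above all NC libraries and AEL replicate 3 was below all of them. The fitted log2 fold change of 0.41 (SE 0.28, 95% interval -0.25 to 1.07) did not pass (adjusted p = 0.254). Without AEL replicate 3 it was 0.71 and passed (adjusted p = 0.00982).

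Stat5a (chromosome 11, 100859351 to 100885169, plus strand; ENSMUSG00000004043.14) measured 236, 296 and 365 CPM in AEL, compared with 75.1, 84.3 and 72.4 CPM in NC. All AEL libraries lay far above all NC libraries, with means of 299 ± 64.4 and 77.2 ± 6.24 CPM (SD, n = 3). The log2 fold change was 1.95 (SE 0.18, adjusted p = 0.000411), and with single libraries left out it ran from 1.82 to 2.17 and stayed past the threshold. Stat5b (chromosome 11, 100780731 to 100850724, minus strand; ENSMUSG00000020919.11), which lies next to Stat5a and is transcribed away from it, measured 180, 278 and 198 CPM in AEL, compared with 126, 134 and 138 CPM in NC. Its groups did not overlap either, but the distance was smaller, with a log2 fold change of 0.72 (SE 0.18, adjusted p = 0.0139). It did not pass when NC replicate 1 or 2 was left out (adjusted p = 0.0583 and 0.0526).

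The balance between the STAT5 genes was described after their values were seen. An exact permutation test of the ratio below gave p = 0.1. That is the smallest value it can give with 3 libraries per group, so it cannot decide. Per kilobase of coding transcript, the ratio of Stat5a to Stat5b was 1.81, 1.47 and 2.54 in the AEL libraries and 0.816, 0.865 and 0.718 in the NC libraries. The ratio was higher in every AEL library, by 1.24 on the log2 scale or 2.37-fold. The paralogs share sequence: of all stretches of 50 bases in the coding transcripts of Stat5a, 14.7% also occur in Stat5b, and 4.12% of stretches of 150 bases do. Counts between them are therefore uncertain to that extent, since neither the read length nor the treatment of multiply mapped reads is stated.

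Cish (chromosome 9, 107296026 to 107302784, plus strand; ENSMUSG00000032578.7) encodes CIS, which occupies STAT5 docking sites on the receptor. It was at 16.9, 7.06 and 1.74 CPM in AEL replicates 1, 2 and 3, and at 5.81, 6.26 and 5.65 CPM in NC. AEL replicates 1 and 2 were above the NC range and AEL replicate 3 below it, so the AEL libraries differed 9.71-fold among themselves and the NC libraries 1.11-fold. The fitted log2 fold change of 0.53 (SE 0.71, adjusted p = 0.560) did not pass, its 95% interval ran from -1.17 to 2.23, and it was -0.37 without AEL replicate 1. Pim1 (chromosome 17, 29490753 to 29496112, plus strand; ENSMUSG00000024014.8), a survival kinase induced by STAT5, measured 221, 134 and 30.8 CPM in AEL, compared with 85.3, 121 and 117 CPM in NC. It took the same places as Cish: AEL replicates 1 and 2 above the NC range, AEL replicate 3 below it. Its log2 fold change was 0.25 (SE 0.61, adjusted p = 0.745), with a 95% interval of -1.19 to 1.70. Without AEL replicate 3 it was 0.74 and passed (adjusted p = 0.0405), and without AEL replicate 1 it was -0.32.

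The Cish start region is shown because STAT5 binds paired sites of the form TTCNNNGAA in this gene. The sequence is from RefSeq (GRCm38.p6, chr9:107296529-107296688, plus strand), from 130 bases before the start site to its 30th base, and capitals mark TTCNNNGAA, which reads the same on both strands. The Socs3 stretch holds the single match in its promoter window (chr11:117969467-117969566, minus strand, bases -200 to -101). Bases are counted from the RefSeq start sites. Both stretches lie inside the gene spans given for Cish and Socs3, which are from GENCODE and begin further upstream.
Cish: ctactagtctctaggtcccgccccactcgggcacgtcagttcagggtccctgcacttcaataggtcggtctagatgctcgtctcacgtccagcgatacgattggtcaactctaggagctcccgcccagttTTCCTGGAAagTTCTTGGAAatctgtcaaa
Socs3: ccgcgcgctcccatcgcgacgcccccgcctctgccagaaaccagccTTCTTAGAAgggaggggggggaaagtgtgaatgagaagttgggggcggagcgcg
Cish held 2 matches, at bases 1 to 9 and 12 to 20, and Socs3 held 1, at bases -154 to -146. Of all promoter windows 8.30% hold at least 1 match and 0.457% hold 2 or more. Promoters of 8 of the 10 genes were in the RefSeq table, in 11 windows, and the other 9 windows held no TTCNNNGAA; the ETS core CCGGAA, present in 14.9% of all windows, matched in 1, that of Stat5b. The genes with matches did not share a pattern of expression: Cish spread around the NC level and Socs3 was below it.

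Socs3 (chromosome 11, 117966079 to 117970047, minus strand; ENSMUSG00000053113.3) encodes an inhibitor that binds both JAK2 and cytokine receptors. It measured 0.901, 1.95 and 0.549 CPM in AEL, compared with 8.77, 9.22 and 10.4 CPM in NC. Every AEL library was below every NC library. The fitted log2 fold change was -3.06 (SE 0.49), and -3.66 without AEL replicate 2. Socs2 (chromosome 10, 95385362 to 95417180, minus strand; ENSMUSG00000020027.18), known best as an inhibitor of growth hormone signalling, had 4, 1 and 0 counts in the AEL libraries and 19, 17 and 16 counts in NC. The summed counts, 5 against 52, give a level 12.1-fold lower in AEL (exact 95% counting interval 4.88 to 38.9). Its fitted log2 fold change was -3.47 and moved to -4.98 without AEL replicate 1 and to -2.84 without AEL replicate 3. Both SOCS genes were low beside the neutrophil, macrophage and B cell markers given above, and the part of those cells was not tested.

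Lyn (chromosome 4, 3678115 to 3813122, plus strand; ENSMUSG00000042228.14), a SRC family kinase of erythroid, myeloid and B cells, measured 81.4, 55.5 and 61.4 CPM in AEL, compared with 82.3, 88.4 and 99.0 CPM in NC. The groups did not overlap, but AEL replicate 1 came close to NC replicate 1. The log2 fold change of -0.44 (SE 0.17, adjusted p = 0.0684) did not pass, with a 95% interval of -0.86 to -0.03. It passed without AEL replicate 1 (-0.54, adjusted p = 0.0184) and with upper quartile scaling (-0.48, adjusted p = 0.0469). Sh2b3 (chromosome 5, 121815488 to 121837646, minus strand; ENSMUSG00000042594.16) measured 32.3, 39.6 and 43.3 CPM in AEL, compared with 39.5, 46.6 and 52.0 CPM in NC. The groups overlapped, the log2 fold change was -0.26 (SE 0.18, adjusted p = 0.254), and the 95% interval of -0.68 to 0.16 leaves out a 2-fold change in either direction.

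Exons of some of these genes overlap genes on the other strand, and whether the counting used strand is not stated, so their counts are uncertain to that extent. The overlap covers 14.5% of the exon bases of Pim1 (Gm26885), 7.46% and 4.07% of Cish (Gm17041 and Gm17040), 6.09% of Lyn (Gm26857), 2.06% of Sh2b3 (Atxn2) and 1.01% of Stat5a (Stat3). The mean of Atxn2 was 116 CPM in AEL, above its NC mean of 52.8 CPM.

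The order of mean levels within each group was compared per kilobase of coding transcript, in CPM per kb. In NC it ran from Epor (176) through Pim1 (60.1), Jak2 (33.8), Lyn (26.2), Stat5b (25.9), Stat5a (20.7) and Sh2b3 (17.3) to Socs3 (3.70), Cish (2.11) and Socs2 (0.967). Among neighbours in that order Lyn overlapped Stat5b (24.0 to 28.9 against 24.6 to 27.0), and Stat5a and Sh2b3 also overlapped by their libraries' ranges. In AEL the order of means was Epor (156), Stat5a (80.0), Pim1 (71.8), Jak2 (44.8), Stat5b (42.5), Lyn (19.3), Sh2b3 (14.5), Cish (3.06), Socs3 (0.445) and Socs2 (0.0857). In AEL neighbours overlapped from Epor down to Stat5b, and again for Lyn with Sh2b3 and Cish with Socs3, so those places are not fixed by these libraries. These places depend on the transcript length assumed for each gene.

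The spread between AEL libraries had a common form in 3 of the genes. Epor, Cish and Pim1 were each highest in AEL replicate 1 and lowest in AEL replicate 3, as was Socs2 at its few counts, making 4 of 10 genes where 15.2% of all genes tested showed that arrangement. With AEL replicate 1 above and AEL replicate 3 below all NC libraries there were 4 of 10 (Epor, Jak2, Cish and Pim1) against 4.51% of all genes; both arrangements were chosen after the values were seen. Red cell genes were arranged the same way, though below NC throughout: Slc4a1, the band 3 anion exchanger, had 344, 51.2 and 4.30 CPM in AEL replicates 1, 2 and 3, and Alas2, the first enzyme of erythroid heme synthesis, at 166, 40.3 and 24.2 CPM. Of the 10 erythroid markers 6 were highest in AEL replicate 1 and lowest in AEL replicate 3. The part of erythroid maturity in the spread of Epor, Cish and Pim1 was not tested. Stat5a did not follow it, with its lowest AEL value in replicate 1 and its highest in replicate 3.

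**Figure D3:**
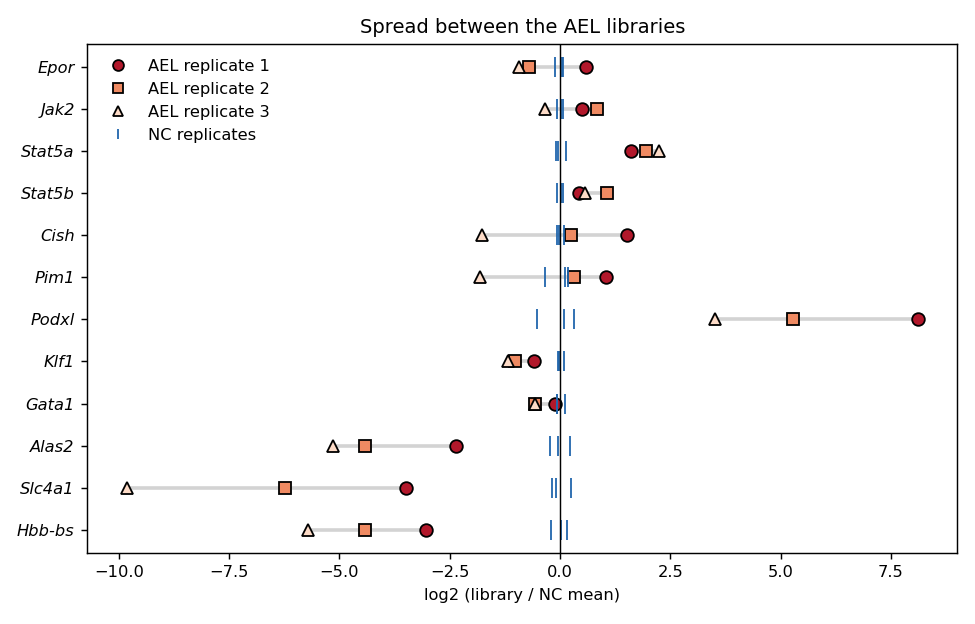
Log2 ratio of each library to the NC mean (x axis) for EPO pathway genes and red cell genes; filled symbols are the AEL libraries and blue ticks the NC libraries. AEL replicate 1 (circles) lies to the right of AEL replicate 3 (triangles) for Epor, Cish, Pim1, Podxl, Alas2, Slc4a1 and Hbb-bs, and to the left for Stat5a.

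Position on the chromosome is described because Epor, Cish and Jak2 lie where the AEL libraries departed from NC over many genes. Values are log2 ratios of an AEL library to the NC mean with 0.5 CPM added to both, for neighbours within 5 Mb at a mean of 10 CPM or more, and are described without a test. The 49 neighbours of Epor had medians of 1.35, -0.08 and 0.71 in AEL replicates 1, 2 and 3, against 0.03, 0.02 and -0.01 for all 8933 genes at that level. Epor itself was at 0.59, -0.69 and -0.94, below its neighbours' median in each library, and in AEL replicate 3 it was lower than NC while 35 of 49 neighbours were higher. The whole of chromosome 9 had medians of -0.69, 0.01 and -0.74 over 474 genes. Cish lies elsewhere on it, where its 91 neighbours had medians of -1.04, -0.13 and -0.98. In AEL replicate 1 Cish was at 1.44, above all 91 of them, and in AEL replicate 3 at -1.52, with 33.0% of them lower still.

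The 22 neighbours of Jak2 on chromosome 19 had medians of 0.35, 0.29 and -0.45, close to the pattern of Jak2 itself (0.49, 0.83 and -0.34). Within 2 Mb the 11 neighbours gave 0.72, 0.62 and 0.25, and at a mean of 1 CPM the 33 neighbours within 5 Mb gave 0.02, 0.02 and -0.88. The whole chromosome had a median of -0.88 in AEL replicate 3 over 333 genes and 0.04 and -0.06 in replicates 1 and 2. For Stat5a and Stat5b neighbours had medians between -0.19 and -0.07, between -0.51 and -0.27 within 2 Mb, and between -0.38 and -0.12 at a mean of 1 CPM, while Stat5a was higher than 94.6% to 99.1% of its 112 neighbours in each library. The part of these regional differences in the values of Epor, Cish and Jak2 was not tested.

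**Figure D4:**
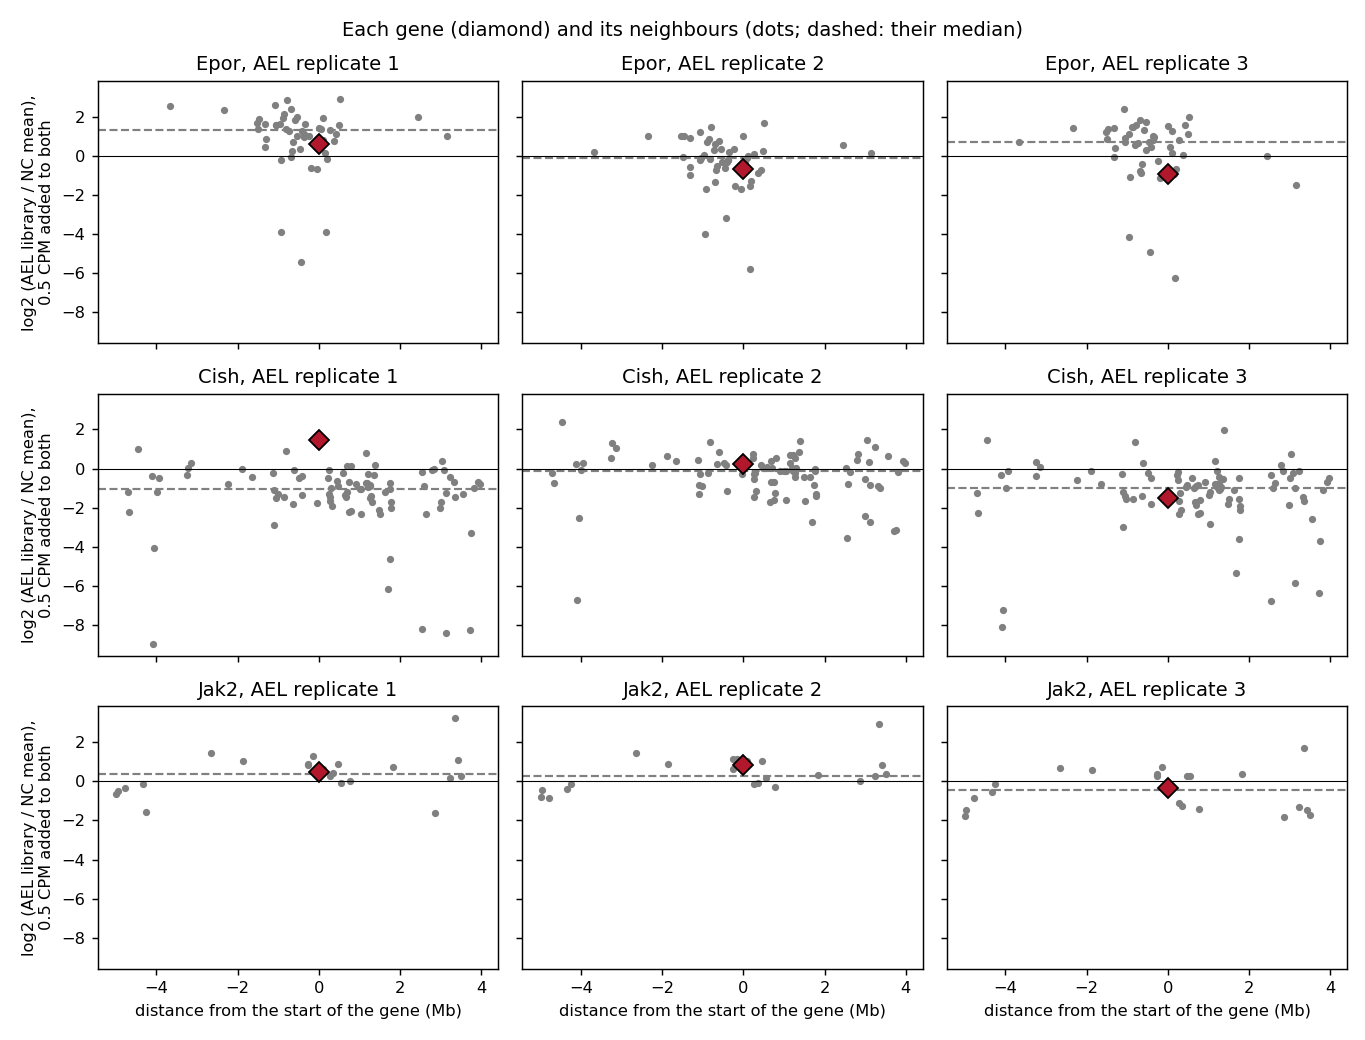
Log2 ratio of each AEL library to the NC mean with 0.5 CPM added to both (y axis) against distance from the start of Epor, Cish or Jak2 (x axis, Mb); dots are neighbouring genes, the dashed line their median and the diamond the named gene. Neighbours of Epor centre on 1.35 in AEL replicate 1 with Epor below them, and Cish stands above all its neighbours in that library.

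By the likeness of their profiles over the 6 libraries, measured as the root mean square difference of centred log2 CPM among 8926 genes, the genes nearest to Epor were Ccdc82 (0.0877), Ftx (0.101), Pspc1 (0.101), Vcl (0.130) and Dhrs4 (0.138), where the median gene stood at 0.651. Ccdc82 is also on chromosome 9, at 13246917, while Pspc1, Vcl and Dhrs4 are on chromosome 14 and Ftx is on the X chromosome. Ccdc82, for example, was at 106, 46.4 and 44.0 CPM in AEL and 74.9 to 80.6 CPM in NC. The genes nearest to Jak2 were Cox15 (0.0777), Ldb1 (0.0788), Atl3 (0.0959), Pddc1 (0.107) and Trappc9 (0.111), against a median of 0.540. The nearest 3, Cox15, Ldb1 and Atl3, are on chromosome 19 as Jak2 is. None of these 10 genes passed the test between the groups.

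Of the other pathway genes, listed by role, 98 of 104 were tested and 25 were higher and 34 lower in AEL, 60.2% called against 52.8% of all genes. Over all genes tested 23.9% were higher and 29.0% lower. Of the 34 lower genes 20 were under 1 CPM in at least 1 AEL library and passed the filter only with NC. Likewise 2 of the 25 higher genes (Podxl and Trib3) passed only with AEL. The filter thus leaned on the group where these genes are high. The median log2 fold change of the 98 genes was -0.21, against -0.05 for all genes tested. The number higher was 15, 16 and 15 without NC replicate 1, 2 and 3.

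**Figure D5:**
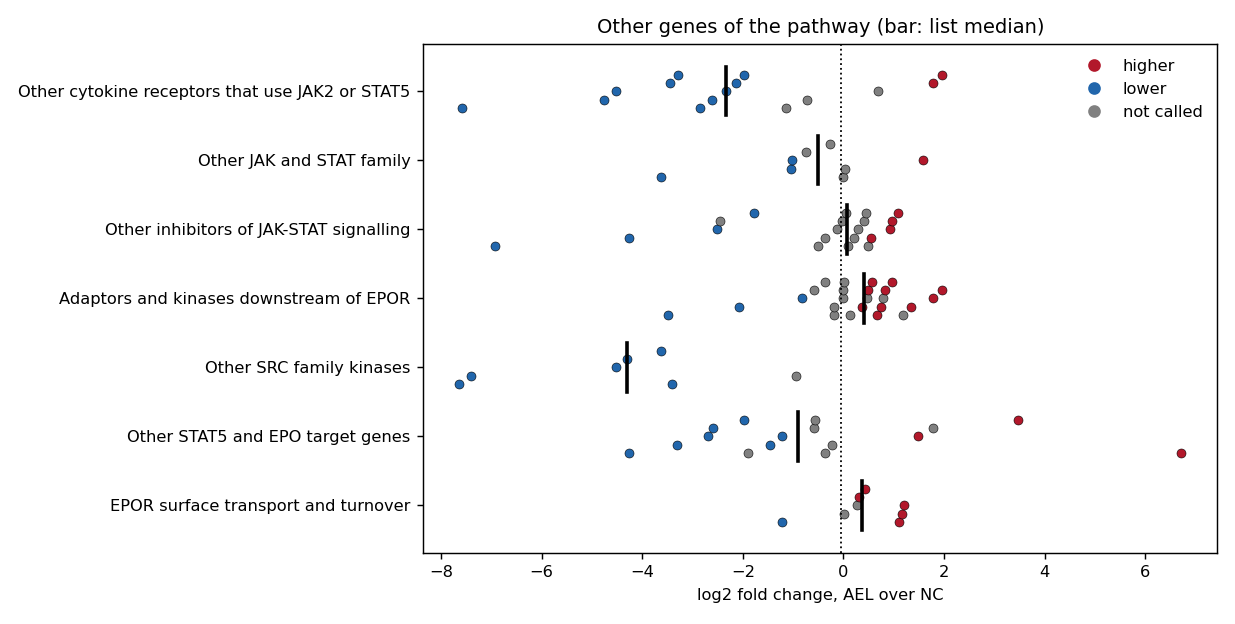
Fitted log2 fold change of AEL over NC (x axis) of each tested gene in 7 lists of EPO and JAK-STAT pathway genes; black bars are list medians and the dotted line the median of all genes. Cytokine receptors (median -2.33) and SRC family kinases (median -4.31) lie mostly to the left, adaptors (median 0.41) mostly near or right of 0.

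Among other cytokine receptors that work through JAK2 or STAT5, 10 of 15 tested were lower and 2 rose. That is 80.0% called, against 52.8% of all genes. Of the 10 lower receptors 8, Csf3r and Csf2ra included, passed the filter only with NC. Kit, the stem cell factor receptor, which cooperates with EPOR in progenitors, was at 58.1, 145 and 205 CPM in AEL and 35.9 to 42.3 CPM in NC (log2 fold change 1.78, SE 0.42, adjusted p = 0.0118; 0.0523 without NC replicate 3). Il2rg, the common gamma chain, rose from 11.6 to 15.2 CPM in NC to 33.5 to 75.8 CPM in AEL. Csf2rb, the shared beta chain of the IL-3, IL-5 and GM-CSF receptors, which can also associate with EPOR, fell by 1.98 on the log2 scale (SE 0.47), with 3.75 to 15.0 CPM in AEL and 30.3 to 43.3 CPM in NC. Receptors of other lineages were also lower: Csf3r, the neutrophil G-CSF receptor, was at 0, 16.1 and 1.10 CPM in AEL and 114 to 147 CPM in NC, Csf2ra at 0.901, 18.6 and 11.4 CPM against 56.9 to 88.2 CPM, and Crlf2 fell by 2.14. Neither Csf3r nor Csf2ra passed with any NC replicate left out (adjusted p = 0.0534 to 0.0616 and 0.0549 to 0.0771), nor did Csf2ra without AEL replicate 3 (0.0514). Without AEL replicate 1 their log2 fold changes were -3.89 and -2.24, and without AEL replicate 2 they were -7.69 and -3.48. Csf3r is itself one of the neutrophil markers. With NC replicate 3 left out only 1 receptor was called higher. Neutrophil markers summed to 17.6, 1051 and 117 CPM in AEL replicates 1, 2 and 3. Csf3r, Csf2ra, Crlf2, Il2rb and Il6st were likewise highest in replicate 2 and lowest in replicate 1. Csf2rb and Il3ra were lowest in replicate 3, Il7r and Lepr were highest there, and Il2ra had no counts in AEL. The part of neutrophils in these falls was not tested.

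Of the other JAK and STAT genes, 3 of 8 were lower, 1 rose and 4 did not pass. Among all genes tested, 29.0% were lower and 23.9% higher, so 52.8% were called. Tyk2, a JAK kinase of interferon and interleukin receptors, was at 249, 103 and 157 CPM in AEL and 50.4 to 60.3 CPM in NC (log2 fold change 1.59, SE 0.31, adjusted p = 0.00561). Tyk2 lies 0.85 Mb from Epor, among the neighbours described above, and its log2 ratios to NC of 2.13, 0.86 and 1.47 in AEL replicates 1, 2 and 3 stand beside their medians of 1.35, -0.08 and 0.71; the part of the region in its rise was not tested. Jak3, the partner of the common gamma chain, fell by 1.03 (SE 0.29), but did not pass with any NC replicate left out (adjusted p = 0.0652 to 0.0783) or with replicate number as a block (adjusted p = 0.0530). Stat4, at 0 to 0.977 CPM in AEL and 3.74 to 5.65 CPM in NC, was tested only through NC. Jak1 (log2 fold change 0.02, 95% interval -0.43 to 0.47) and Stat3 (0.00, -0.36 to 0.36) were near 0, in contrast with Stat5a. The number lower was 1 without NC replicate 2 or 3.

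Other inhibitors of the pathway went both ways, with 4 of 20 higher and 4 lower (40.0% called, against 52.8% of all genes). Ptpn6, which encodes the phosphatase SHP-1 that dephosphorylates JAK2 at the receptor, fell from 144 to 172 CPM in NC to 39.3 to 52.1 CPM in AEL (log2 fold change -1.79, SE 0.15, adjusted p = 0.000311). Ptprc, the leukocyte phosphatase CD45, fell (log2 fold change -4.27, or -3.67 and -6.15 without AEL replicate 1 and 2). It was at 0.676, 20.5 and 3.39 CPM in AEL and 146 to 166 CPM in NC, beside the leukocyte markers given above, whose part was not tested. Socs5, reported to restrain receptor and JAK signalling, had 2 counts in 1 AEL library, none in the others, and 7.61 to 11.5 CPM in NC. Socs1 was at 0.0915 to 0.901 CPM in AEL and 2.25 to 2.71 CPM in NC, so it too was tested only through NC, as were Socs5 and Ptprc. Socs1 did not pass with any NC replicate left out (adjusted p = 0.0552 to 0.0631), and its log2 fold change of -2.51 was -3.48 without AEL replicate 1. Socs7 rose by 1.09 (SE 0.15) and Socs6 by 0.93 (SE 0.27); Socs6 did not pass with any NC replicate left out (adjusted p = 0.0555 to 0.0971) or with the replicate block (0.0686). Cblb, a ubiquitin ligase, rose by 0.97 (SE 0.26), not past the threshold without NC replicate 1 or 2 (adjusted p = 0.0712 and 0.0719), where 2 inhibitors were called higher. The phosphatases Ptpn1, Ptpn2 and Ptpn11 did not pass, with log2 fold changes of 0.09, 0.06 and -0.03.

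Adaptors and kinases that carry the signal from EPOR to RAS, MAP kinase and PI3K rose in 10 of 24 cases and fell in 3. That is 54.2% called, against 52.8% of all genes. Grb2, the adaptor that links the receptor to RAS activation, was at 534, 618 and 605 CPM in AEL and 143 to 159 CPM in NC (log2 fold change 1.95, SE 0.11, adjusted p = 0.000106). Its partner Sos1, a RAS exchange factor, rose by 1.34 (SE 0.18), and Plcg1, a phospholipase, by 1.77 (SE 0.29). Plcg2, the form used in B and myeloid cells, fell by 3.49 (SE 0.78), with a log2 fold change of -4.84 without AEL replicate 2. It was under 1 CPM in AEL replicate 1 and passed the filter only with NC, where it is high. Mapk3, which encodes ERK1, fell by 2.08 (SE 0.35), from 87.9 to 102 CPM in NC to 13.6 to 35.5 CPM in AEL. Shc1, an adaptor beside GRB2, fell by 0.82 (SE 0.21), and did not pass when NC replicate 2 or 3 was left out (adjusted p = 0.0545 and 0.0553). The number higher was 6 without each of the NC replicates.

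SRC family kinases other than Lyn were lower in 6 of 7 cases (5 of them tested only through NC) and higher in none. That is 85.7% called, against 52.8% of all genes. Lyn remained at 55.5 to 81.4 CPM in AEL. Fgr, a kinase of myeloid cells, was at 0.113, 7.38 and 1.01 CPM in AEL and 55.6 to 71.3 CPM in NC. Fes, a related myeloid kinase, fell by 3.41 (SE 0.87), with adjusted p = 0.0557 without NC replicate 3. The log2 fold changes of Fgr and Fes were -6.67 and -5.10 without AEL replicate 2, and that of Fgr was -3.90 without AEL replicate 1. Lck and Blk, of T and B cells, had at most 1 count in each AEL library. Fyn was at 13.6, 1.63 and 28.0 CPM in AEL and 24.5 to 30.1 CPM in NC and did not pass. Markers of myeloid, T and B cells fell in the same libraries, and their part was not tested.

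Of 16 other targets of STAT5 and EPO, 3 were higher and 7 lower, where 23.9% and 29.0% of all genes were. In all 62.5% of the targets were called, against 52.8% of all genes. Podxl, a sialomucin that EPO induces in erythroid progenitors, was at 154, 21.7 and 6.31 CPM in AEL replicates 1, 2 and 3 and at 0.387 to 0.691 CPM in NC. Its summed counts, 1635 against 14, give a 100.2-fold higher level, with 1366 of the 1635 in AEL replicate 1. The exact 95% counting interval of 59.5 to 184 covers counting error only, not the spread between libraries. The fitted log2 fold change was 6.72 (95% interval 3.36 to 10.1), and 4.68 without AEL replicate 1. Podxl passed the filter only with AEL, where it is high, and is given as a description. Pim3, a relative of Pim1, rose by 1.48 (SE 0.35), with adjusted p = 0.0519 without NC replicate 1, and Pim2 fell by 1.46 (SE 0.32). Bcl2l1, which encodes the survival protein BCL-XL, fell from 82.2 to 144 CPM in NC to 13.8 to 30.1 CPM in AEL (log2 fold change -2.59, SE 0.36, adjusted p = 0.00159). Ccnd3, a cyclin of erythroid division, fell by 2.69 (SE 0.33), and Osm (oncostatin M) fell by 1.99 (SE 0.43). Bcl6, a repressor also known in lymphoid and myeloid cells, had a log2 fold change of -4.27, and of -6.03 without AEL replicate 2; it was tested only through NC. Its 0.113, 1.85 and 0.275 CPM in AEL replicates 1, 2 and 3 stood highest in the library where the neutrophil markers also summed highest (17.6, 1051 and 117 CPM). Bcl2l1, Ccnd3, Osm and Bcl6 fell beside the leukocyte and erythroid markers given above, whose part was not tested. Tfrc, the transferrin receptor CD71, which was stained for in the NC sort, fell by 1.21 (SE 0.20). Fam132b, which encodes the EPO-induced hormone erythroferrone, was at 5.40, 2.17 and 0.915 CPM in AEL and 2.97 to 5.32 CPM in NC and did not pass. Trib3, at 6.87, 1.41 and 18.7 CPM in AEL and 0.709 to 0.903 CPM in NC, was the third target higher, and 1 target was higher without NC replicate 1.

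Genes of receptor transport and turnover rose in 5 of 8 cases, fell in 1 and did not pass in 2. Among all genes tested, 23.9% were higher and 29.0% lower, so 52.8% were called. Tfr2, a transferrin-sensing protein that binds EPOR and helps it to the surface, was at 264, 237 and 268 CPM in AEL and 203 to 211 CPM in NC. Its rise was small (log2 fold change 0.32, SE 0.10, adjusted p = 0.0350) and did not pass with upper quartile scaling (adjusted p = 0.0576), voom with group weights (0.0546), the replicate block (0.118) or with any NC replicate left out (0.100 to 0.116). Hsp90aa1, a chaperone of JAK2, rose by 1.21 (SE 0.13), Hspa9, the chaperone mortalin, by 1.16 (SE 0.27; adjusted p = 0.0508 without NC replicate 3), and Scrib by 1.11 (SE 0.15). Btrc, the ubiquitin ligase subunit that targets activated EPOR, was at 84.9, 94.3 and 30.8 CPM in AEL and 156 to 170 CPM in NC (log2 fold change -1.22, SE 0.38); it did not pass with any NC replicate left out (adjusted p = 0.0774 to 0.0904), leaving 0 lower. The number higher was 3 with upper quartile scaling, with the replicate block and without NC replicate 1 or 2, and 2 without NC replicate 3.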

How the data were processed

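Poly-A RNA was sequenced from 6 samples (3 AEL, 3 NC), per the labels' protocols. The authors deposited a table of whole-number counts per gene, although its name says CPM; the submitters' processing notes name mm10 and edgeR 3.32.1, with no role. The aligner, the counting tool and its strand setting are not stated, so reads of a gene and an antisense partner cannot be told apart. At these totals 3 counts equal 0.302 to 0.367 CPM.

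Computed here: edgeR 4.0.16 (R 4.3.3) quasi-likelihood test, TMM scaling, with no covariate, on the 12427 of 13007 genes that reached 1 CPM in 3 or more libraries, Benjamini-Hochberg over all of them. CPM use totals multiplied by TMM factors. SE is the absolute log2 fold change over the square root of F. Alternatives included DESeq2 1.42.0, limma 3.58.1, other scalings, filters, a replicate block and leaving out each library; the test was tried on simulated counts.

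The genes and lists were chosen with earlier results of these data known. Genes named were the 10 members, Kit, Csf2rb, Jak1, Stat3, Ptpn6, Socs1, Pim2, Bcl2l1, Osm, Tfrc and Tfr2, up to 3 called per list and direction with the largest change at 10 CPM or more, and the 5 profiles nearest to Epor and to Jak2; other names were chosen after their values were seen. Some genes under this rule are not reported here. Transcript lengths are medians over protein-coding transcripts of GENCODE M21, which also gave the gene spans of the members. Positions of neighbours and promoter start sites are from RefSeq GRCm38.p6. No library repeats another: chi-square per degree of freedom was 4.94 to 9.09 within NC and 49.4 to 61.9 within AEL. Intervals on counts cover counting error only.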

Additional observations from a re-analysis of the deposited data

How the results depend on the processing

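Over all 12427 genes, 2964 were higher and 3599 lower; leaving out each library gave 1915 to 3375 higher and 2662 to 3921 lower. Higher genes made up 45.2% of those called, and 55.2% with library totals alone, where all genes had a median of 0.14 instead of -0.05. Of the 10 EPO signalling genes, 2 were higher and 2 lower; leaving out each library gave 1 to 4 higher and 2 to 4 lower, and 1 was lower with a filter of 5 CPM, which removes Socs2. In the pathway lists together, 25 were higher and 34 lower, and 15 to 27 and 25 to 39 with a library left out. Stat5a passed under every alternative. Medians of the neighbours of Epor kept their sign with 2 Mb or 1 CPM.

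Some log2 fold changes that had not passed changed sign. With a library left out, Epor ran from -0.74 to 0.10, Cish from -0.37 to 1.03, Pim1 from -0.32 to 0.74, Jak1 from -0.047 to 0.25, Stat3 from -0.098 to 0.13, Pspc1 from -0.79 to 0.13 and Vcl from -0.51 to 0.25. Pim1 was -0.13 with limma at both pseudocounts, -0.16 with voom and -0.097 with the replicate block, and Cish was -0.082 with voom. Jak1 was -0.013 with upper quartile scaling, -0.0064 and -0.0065 with limma, -0.0066 with voom and -0.0060 with the replicate block. Stat3 was 0.00065 with median-of-ratios scaling, 0.19 with library totals and 0.0012 with DESeq2, and Vcl was 0.14 with library totals. The cause was not tested.

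Same-numbered libraries share only a number: the correlation of their deviations from the group means was 0.082, -0.017 and -0.031, and only replicate 1 correlated best with its own number. With the replicate block 2241 genes were higher and 3238 lower, and of the EPO signalling genes 2 and 2. Depth limits Socs2, with 5 counts in AEL.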
